A study of Mus musculus with 4 samples.

Results

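The troponin family was followed through ATAC-seq peak lists of 4 mouse muscles. Its members were the 8 genes Tnnt1, Tnnt2, Tnnt3, Tnni1, Tnni2, Tnni3, Tnnc1 and Tnnc2, and a peak belonged to the family when the authors' annotation gave one of these symbols as its nearest gene. By this rule 19 of 120839 listed peaks were troponin peaks, of which 6 were listed in EDL, another 6 in Quad, 5 in Sol and 2 in Dia. Peaks of different lists that overlapped by at least 1 bp were joined, which gave 9 troponin regions among 53883 regions in all. A troponin region was open in EDL for 6 of the 9, in Quad for 6, in Sol for 5 and in Dia for 2, beside shares of 55.9%, 74.8%, 53.4% and 40.1% of all regions. ATAC-seq reads open chromatin from the insertion of adapters by the transposase Tn5.

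Of the muscles, soleus (Sol) is rich in slow oxidative fibres, quadriceps (Quad) and extensor digitorum longus (EDL) consist largely of fast glycolytic ones, and diaphragm (Dia) contracts throughout life. All came from sedentary mice labelled as wild-type C57BL/6, and the study's methods name male C57BL/6J mice. Each muscle had 1 library, labelled as pooled, and neither the number of animals behind a list nor their age stands in the labels. Without separate replicates no p-value between muscles can be had, and each difference describes these libraries. In whole muscle, fewer nuclei of a type and less open chromatin per nucleus cannot be told apart.

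Troponin is the calcium switch of the striated muscle thin filament. Troponin C binds calcium, troponin I holds the contact between actin and myosin in check, and troponin T ties the complex to tropomyosin. Fast fibres use Tnnc2, Tnni2 and Tnnt3, slow fibres use Tnnc1, Tnni1 and Tnnt1, and the heart uses Tnni3 and Tnnt2 together with Tnnc1. In the mouse genome, troponin I and T genes lie in pairs, as Tnni2 beside Tnnt3, Tnni1 beside Tnnt2, and Tnni3 beside Tnnt1.

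The sequences below are a selection of the troponin regions, which leaves out, among others, the promoters of the fast genes Tnni2 and Tnnt3. They are the 3 open regions of Tnnc2, the region of Tnni1 with a higher score in Sol than in EDL, and the region assigned to Tnni3, the single troponin region found in every muscle. They were read from the RefSeq sequence of GRCm38, the assembly behind mm10, along the strand of the troponin gene. Capitals mark matches on either strand to MEF2, the E-box CAGCTG, the MCAT element CATTCC, the CACC box CCACCC or the NFAT core TGGAAA, elements known from muscle genes. A match is a stretch of letters and not evidence of a bound factor.
Tnnc2 upstream (EDL peak, chr2:164781993-164782201, minus strand): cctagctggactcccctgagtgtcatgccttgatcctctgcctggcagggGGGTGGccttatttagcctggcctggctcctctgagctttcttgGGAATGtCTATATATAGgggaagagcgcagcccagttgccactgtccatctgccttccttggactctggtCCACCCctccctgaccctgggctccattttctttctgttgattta
Tnnc2 promoter (EDL peak, chr2:164779803-164780011, minus strand): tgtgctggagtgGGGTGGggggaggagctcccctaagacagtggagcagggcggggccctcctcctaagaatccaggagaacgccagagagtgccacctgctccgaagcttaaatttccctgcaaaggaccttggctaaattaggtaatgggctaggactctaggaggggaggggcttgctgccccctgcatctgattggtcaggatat
Tnnc2 intron 1 (EDL peak, chr2:164778999-164779207, minus strand): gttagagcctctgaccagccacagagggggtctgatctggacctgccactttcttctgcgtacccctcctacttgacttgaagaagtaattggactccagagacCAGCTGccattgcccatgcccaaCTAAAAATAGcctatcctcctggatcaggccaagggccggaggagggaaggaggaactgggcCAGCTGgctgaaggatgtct
Tnni1 upstream (Sol peak, chr1:135794510-135794716, plus strand): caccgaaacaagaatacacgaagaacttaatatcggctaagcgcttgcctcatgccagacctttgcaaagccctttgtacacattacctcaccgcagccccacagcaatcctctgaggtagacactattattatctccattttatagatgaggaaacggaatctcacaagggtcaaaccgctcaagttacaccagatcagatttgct
Tnni3 upstream (Quad peak, chr7:4526436-4526624, minus strand): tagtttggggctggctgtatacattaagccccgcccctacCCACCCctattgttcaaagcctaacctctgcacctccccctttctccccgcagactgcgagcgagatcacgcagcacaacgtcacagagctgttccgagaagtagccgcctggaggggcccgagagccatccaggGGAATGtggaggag

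The lists differed in length and in the score needed to enter them. Dia held 21582 peaks, Sol 28784, EDL 30136 and Quad 40337, and the lowest peak stood for 25 to 36 tags. The tag counts were inferred from the steps between scores. Peak scores are tag counts that HOMER scales by library size, so a score was placed by its percentile among all peaks of its own list. A peak that is missing from a list says only that none was called there. Skeletal myofibre markers had a peak for 7 of 7 genes in EDL, Quad and Sol and for 6 of 7 in Dia, and the cardiomyocyte markers Myh6, Nppa and Nkx2-5 had none in any list.

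One stretch of the genome bears on the Dia values. Tnni2 and Tnnt3 lie in an interval of 723 kb on chromosome 7 (142284903 to 143008145) where Dia had 0 peaks, EDL and Sol 17 each and Quad 25. Of 21545 intervals between adjacent Dia peaks, this one had the largest number of peaks in the other lists, taken as the fewest of EDL, Quad and Sol. That number was 17, the next highest was 10, and the highest for the same measure was 5 in the EDL list, 3 in Quad and 4 in Sol. Peaks of other genes inside it, such as those of Ctsd, Lsp1 and Mrpl23, were missing from Dia as well. The cause of the empty interval was not tested, so fast class values below are also given for Tnnc2 alone.

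**Figure D1:**
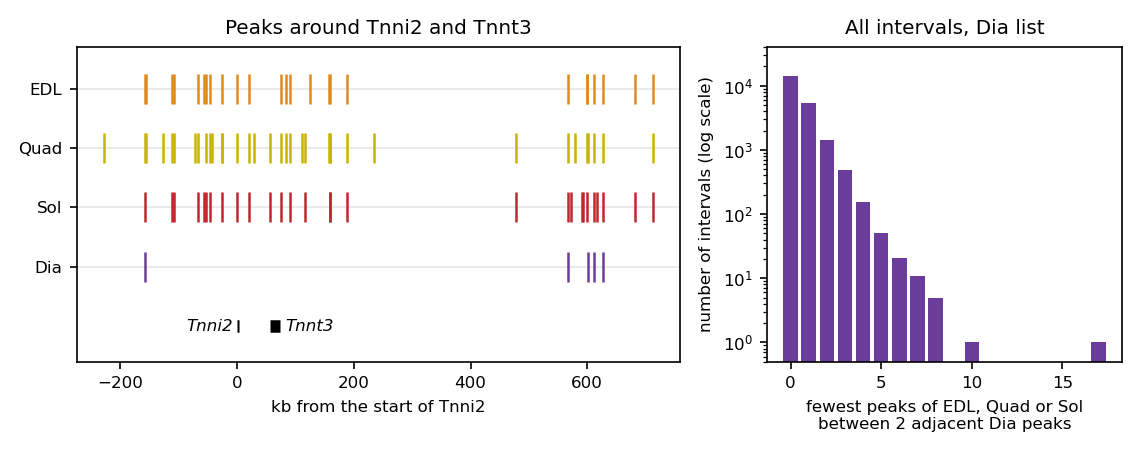
Left, ATAC-seq peaks of the 4 lists (1 tick a peak) by distance in kb from the start of Tnni2, with Tnni2 and Tnnt3 as black bars. Right, the number of intervals between 2 adjacent Dia peaks (log scale) by the fewest peaks that EDL, Quad or Sol held in them. No Dia tick falls in the 723 kb around both genes, and this interval is the bar at 17, apart from the next at 10.

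Fast troponin genes held most of the peaks and every promoter peak of the family. The 3 fast genes had 11 peaks in 5 regions, the 3 slow genes 3 peaks in 2 regions, and the 2 cardiac genes 5 peaks in 2 regions. All 8 promoter peaks, between 1 kb upstream and 100 bp downstream of a start site in the authors' annotation, were those of Tnnc2, Tnni2 and Tnnt3. Fast genes with a promoter peak numbered 3 of 3 in Quad and Sol, 2 of 3 in EDL and 0 of 3 in Dia. Without Tnni2 and Tnnt3 the fast class was Tnnc2, with 6 peaks in 3 regions and a promoter peak in every list but Dia. Among 21896 protein-coding RefSeq genes a promoter peak was present for 41.3% in Quad, 37.6% in Sol, 37.7% in EDL and 37.0% in Dia. No slow or cardiac member had a promoter peak in any list, which was so for 53.3% of those genes.

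Counted by muscle, EDL and Quad had 4 peaks each at fast genes, Sol had 3 and Dia 0. Slow genes had 1 peak each in EDL, Quad and Sol and 0 in Dia, and cardiac genes had 1 in the same 3 muscles and 2 in Dia. Without Tnni2 and Tnnt3 the fast count was that of Tnnc2 alone, which was 3 for EDL, 2 for Quad, 1 for Sol and 0 for Dia. Of the 8 members 5 had a peak in Quad and 5 in Sol, 4 in EDL and 2 in Dia. The background share of protein-coding genes with a peak was 60.2% for Quad, 54.5% for Sol, 54.7% for EDL and 51.2% for Dia, so the counts in Quad, Sol and EDL lay near it. Of the genes with a peak in any list, which takes in 7 members, the shares were 90.8%, 81.4%, 81.5% and 75.3%.

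By the authors' assignment Sol, EDL and Quad each had 1 peak at slow troponin genes. Among the 20000 top-scored peaks of each list Sol had 1 and Quad 0, and with peaks in or within 5 kb of the gene bodies Sol had 4, EDL 3 and Quad 5. The difference in peaks per gene between muscles, taken for fast minus slow genes, was 0.333 for EDL minus Sol and 0.333 for Quad minus Sol, which is 1 fast peak each. Fast genes alone also differed by 0.333 for both pairs, beside 0.0787 and 0.673 over all 17157 genes with a peak in any list. Against Dia the fast minus slow contrast was 1 for EDL, 1 for Quad and 0.667 for Sol. Fast genes alone differed from Dia by 1.33, 1.33 and 1 peaks per gene, beside 0.498, 1.09 and 0.420 over all genes. As 2 of the 3 fast genes lie in the interval without Dia peaks, the contrast was also taken with Tnnc2 alone as the fast gene, and against Dia it was then 2.67 for EDL, 1.67 for Quad and 0.667 for Sol. With 3 genes a class, a contrast moves by 0.333 for each peak gained or lost. With Tnnc2 as the only fast gene, each fast peak moves it by 1. The values for Tnnc2 alone are therefore on another scale and do not show a stronger contrast.

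**Figure D2:**
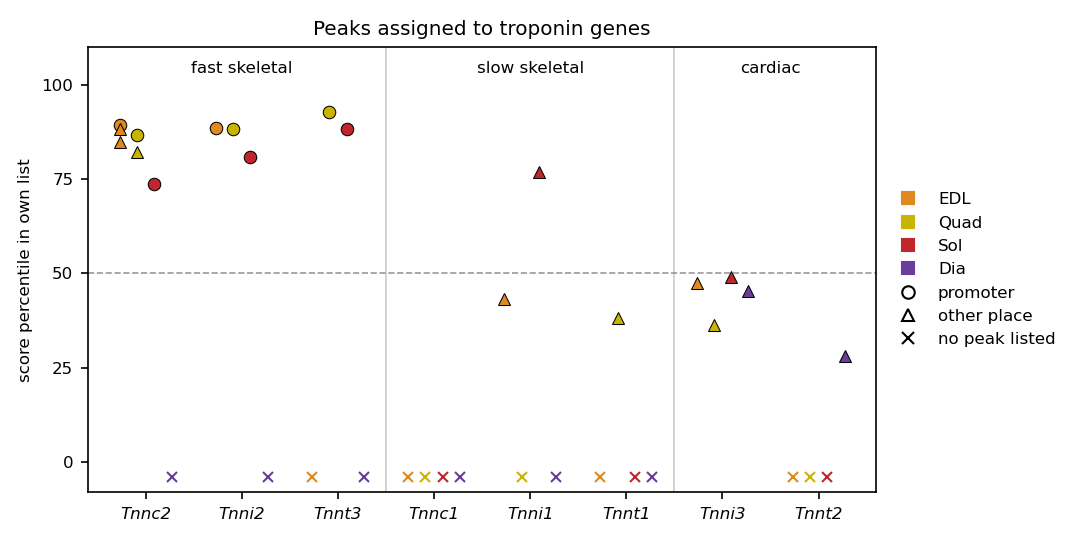
Score percentile within its own list (y axis, 0 to 100) of each of the 19 peaks assigned to a troponin gene (x axis, by isoform class), coloured by muscle. Circles are promoter peaks, triangles other places, crosses mark a gene with no peak in that list, and the dashed line is the middle of a list. Fast peaks lie between 73.7 and 92.9, while 7 of 8 slow and cardiac peaks lie below 50. All circles are in fast genes, so the classes also differ in place.

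Percentiles were also taken among peaks of the same place, promoter or other. The 8 fast promoter peaks ran from percentile 47.0 to 76.5 among promoter peaks of their list, with a median of 67.7. The 8 slow and cardiac peaks, none at a promoter, ran from 42.4 to 88.8 among peaks outside promoters, with a median of 57.6 and 5 of them above 50. The highest of these was the Sol peak of Tnni1, and 4 of them were the same Tnni3 region, counted once in each list. The classes can be compared at the same place only outside promoters, where the 3 fast peaks, all of Tnnc2, stood at 92.5 to 96.3.

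Tnnc2, the fast calcium-binding subunit, carried 6 of the 19 peaks in 3 regions, and the EDL list had 3 of them, Quad 2, Sol 1 and Dia 0. Its promoter peak scored 15.0 in EDL, 13.7 in Quad and 10.3 in Sol, which are percentiles 89.4, 86.8 and 73.7 of the respective lists. Regions open in these 3 lists and not in Dia made up 8.09% of all regions. The intervals of these scores from tag counts were 12.7 to 17.6, 11.2 to 16.6 and 8.47 to 12.5, and they cover counting error only. The peak centres lay 173, 175 and 153 bp upstream of the start of NM_009394. Among promoter peaks alone the scores stood at percentiles 72.6, 61.3 and 47.0, so that the Tnnc2 promoter peak of Sol was close to the middle of its kind.

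A further Tnnc2 peak in intron 1 of 5 was listed in EDL (13.0, percentile 84.8, centre 631 bp past the start) and Quad (11.9, percentile 82.1, 771 bp past it). The centres were far enough apart that the intervals overlapped by only 59 bp. An intergenic peak 2363 bp upstream was listed in EDL alone (14.5, percentile 88.4), although this score was near that of the EDL promoter peak. Regions with a peak in EDL alone made up 6.71% of all regions and regions in EDL and Quad alone 8.05%. The intron and upstream regions were the only troponin regions with a MEF2 match, which in the intron fell inside the EDL peak and outside the Quad peak. MEF2 proteins are regulators of muscle genes.

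The absence of Tnnc2 peaks in Dia did not extend to its neighbours. Of 8 genes that start within 50 kb of Tnnc2, 3 had a promoter peak in any given list, Dia included. These were Snx21, Ube2c and, for a region shared by their adjacent starts, Acot8 in EDL or Zswim3 in the other lists. Snx21, which starts 6025 bp away, stood at percentile 89.8 in Dia and between 84.8 and 95.3 in the other lists. Ube2c, 9805 bp away, stood at 97.3 in Dia and between 97.8 and 98.4 in the others. Of 7089 genes with a promoter peak in EDL, Quad and Sol, 6.88% had none in Dia, and Tnnc2 and Tnni2 were among them.

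Tnni2, the fast inhibitory subunit, had a promoter region in EDL, Quad and Sol. The scores were 14.6, 14.3 and 11.9, at percentiles 88.6, 88.3 and 80.8. The authors' annotation put the centres 875, 735 and 730 bp upstream of NM_009405, whereas the RefSeq start of GRCm38 used here lies closer, with distances of 223, 83 and 78 bp. The EDL peak (chr7:142441489-142441697) overlapped that of Quad by 59 bp and that of Sol by 63 bp, and the Quad peak lay wholly inside the Sol peak. No Tnni2 peak was listed in Dia, inside the empty interval described above.

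Tnnt3, the fast tropomyosin-binding subunit, had the highest-scored troponin peak of both lists that held it. Its promoter peak scored 17.5 in Quad (percentile 92.9, 158 bp upstream) and 14.5 in Sol (percentile 88.4, 31 bp upstream). EDL, the other fast muscle, had no peak assigned to Tnnt3, and regions in Quad and Sol alone made up 3.67% of all regions. Of 7618 genes with a promoter peak in both Quad and Sol, 6.94% had none in EDL. Just past the end of the gene, however, EDL did have a peak at percentile 86.9 that the authors assigned to Prr33, and the same place was open in Quad (90.3) and Sol (69.9).

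Among slow genes, Tnnc1, the calcium-binding subunit shared with the heart, had no peak in any list, as did 34.4% of protein-coding genes. Its neighbour Nisch starts 1486 bp away and had a promoter peak at percentile 71.6 in Sol, 57.9 in Quad and 48.7 in Dia and none in EDL. By nearest start these peaks were assigned to Nisch.

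Tnni1, the slow inhibitory subunit, had an upstream region listed in EDL and Sol. It scored 6.35 in EDL (4.91 to 8.08) and 11 in Sol (9.07 to 13.2), and these intervals did not overlap. The percentiles were 43.2 and 77, and the centres lay 4700 and 4808 bp upstream of the RefSeq mRNA start used here. The authors' annotation calls the place intergenic. The RefSeq span of the gene, which starts at 135783033 on chromosome 1, takes it in. So does a longer Tnni1 transcript of GENCODE, which starts at 135779434. Regions listed in EDL and Sol alone made up 2.11% of all regions, the smallest share of the patterns shown by troponin regions. No troponin region was open in Sol alone, the pattern of 8.62% of all regions.

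Tnnt1, the slow tropomyosin-binding subunit, had 1 peak, in intron 5 of 12 and in Quad alone. It scored 5.63, at percentile 38.2, and lay 4191 bp past the start. Regions in Quad alone made up 22.7% of all regions. Of 4 genes that start within 50 kb of Tnnt1, 3 had a promoter peak in each list. Coverage at Tnnt1 itself was not tested.

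The peaks of the cardiac genes lay away from their start sites. The region assigned to Tnni3, the cardiac inhibitory subunit, was open in all 4 lists, as were 26.9% of all regions, and scored 7.07 in Sol, 7.05 in Dia, 6.73 in EDL and 5.51 in Quad. These were percentiles 49.0, 45.3, 47.6 and 36.4 of all peaks, and 62.3, 64.8, 60.1 and 45.9 of peaks outside promoters. It lay about 4 kb upstream of Tnni3, at distances of 3980 to 4015 bp, inside the gene Dnaaf3, a dynein assembly factor of cilia. The annotation placed the centre in exon 9 of 12 of NM_001033548 in EDL, Quad and Sol and in intron 8 of 11 in Dia. The 4 counting intervals overlapped one another.

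Tnnt2, the cardiac tropomyosin-binding subunit, had 1 peak, in Dia alone, where it scored 5.74 at percentile 28.1. It was intergenic and 21480 bp past the start site that the authors' annotation used. Measured from the earliest RefSeq mRNA start it was 26007 bp away, beyond the end of the gene. Regions in Dia alone made up 4.61% of all regions. Tnni3 and Tnnt2 gave both troponin peaks of the Dia list, and none of its peaks was assigned to a fast or slow member.

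**Figure D3:**
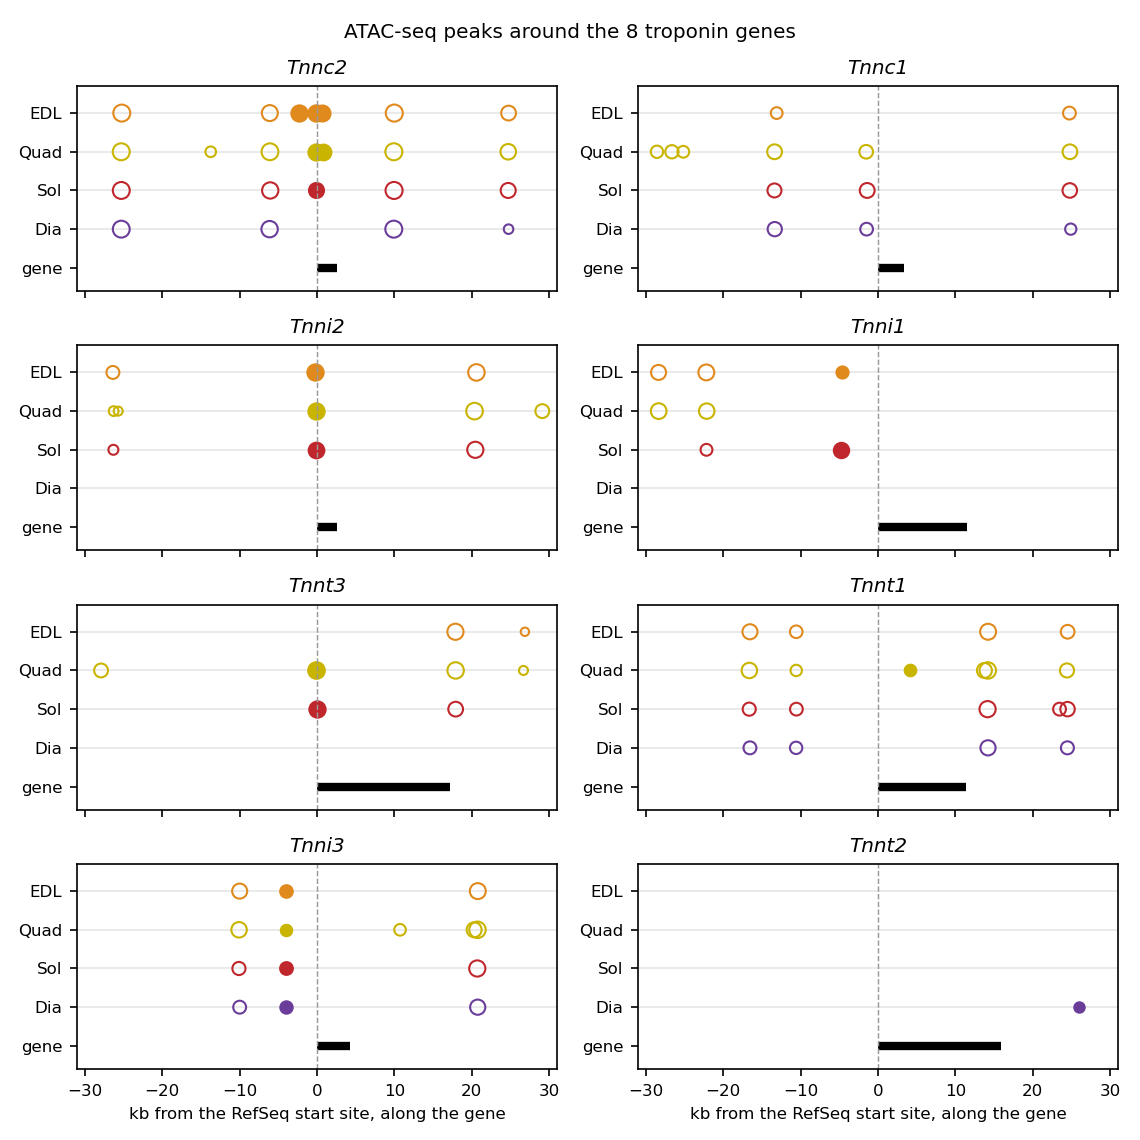
Peaks within 30 kb of the RefSeq start (dashed line) of each troponin gene, by distance in kb along the gene (x axis) and muscle (rows), with the span of the RefSeq mRNAs as a black bar. Filled circles were assigned to that gene and open circles to another gene, and a larger circle has a higher score percentile. Filled circles sit at the start of Tnnc2, Tnni2 and Tnnt3 and away from the start of the slow and cardiac genes.

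Where a region was open in 2 lists, the scores were compared directly. The 15 pairs at 6 troponin regions were each divided by the median ratio of all regions shared by the same lists, and the intervals cover counting error of the inferred tags only. No pair passed 2-fold. Among all regions shared with Dia, the share past 2-fold was 1.35% for EDL, 1.06% for Quad and 0.678% for Sol, and it was 1.05% for EDL against Sol, 1.38% for Quad against Sol and 0.456% for EDL against Quad.

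For 2 of the 15 pairs the interval left out equality, and both compared EDL with Sol. The share of all shared regions with such an interval was not computed, so this count has no background beside it. The Tnnc2 promoter was 1.47-fold higher in EDL, a centred log2 ratio of 0.56 (0.19 to 0.92), at percentile 95.3 of 20584 shared regions. The Tnni1 upstream region had an EDL over Sol ratio of 0.584, a centred log2 ratio of -0.78 (-1.23 to -0.33), at percentile 1.78. The middle 95% of regions shared by EDL and Sol ran from -0.70 to 0.69. The Tnnc2 promoter lay inside this range and the Tnni1 region outside it. The EDL and Sol peaks of Tnni1 overlapped by only 100 bp. A further region near Tnni1, chosen after its values were seen, lay upstream of its longest transcript, was assigned to Phlda3 and went the other way between the same lists, with a centred log2 ratio of 1.01 (0.58 to 1.46), which is 2.02-fold, at percentile 99.6.

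The other fast pairs lay closer to equality. For EDL over Sol the Tnni2 promoter had a centred log2 ratio of 0.31 (-0.04 to 0.66). For Quad over Sol the ratios were 0.28 (-0.13 to 0.67) at the Tnnc2 promoter, 0.13 (-0.25 to 0.51) at the Tnni2 promoter and 0.14 (-0.21 to 0.48) at the Tnnt3 promoter. For EDL over Quad the fast regions ran from 0.17 to 0.27, and these pairs share libraries. At the Tnni3 region the 6 pairs ran from -0.55 for Quad over Dia to 0.43 for EDL over Quad, and each interval held 0.

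**Figure D4:**
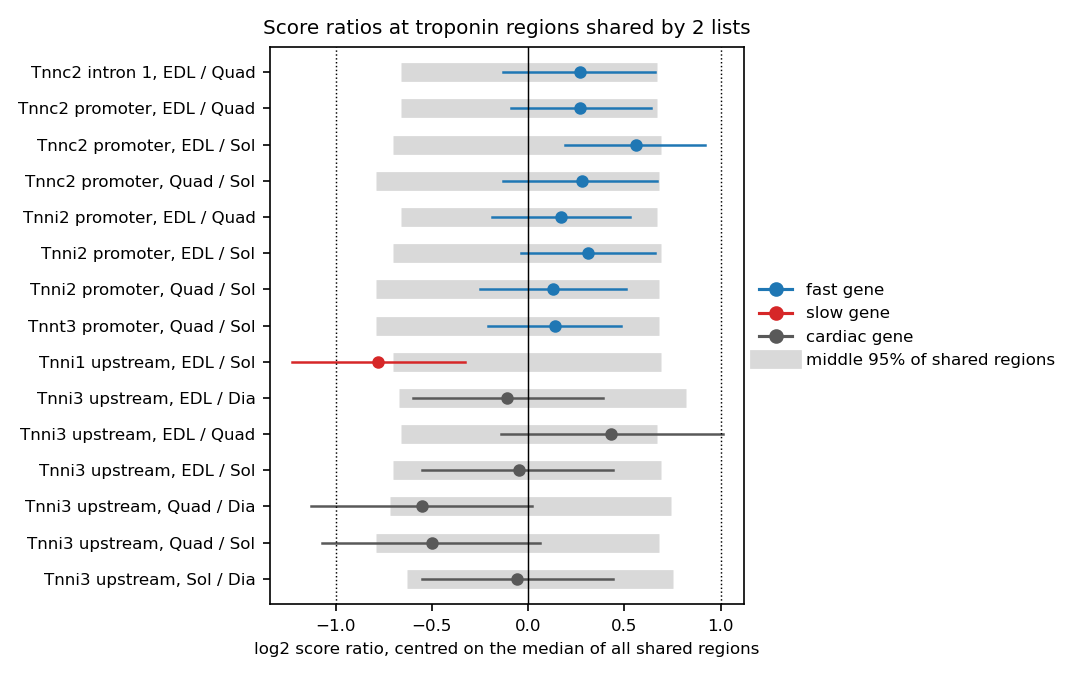
Log2 ratio of peak scores between 2 lists at each shared troponin region (points), centred on the median of all regions shared by those lists, with 95% intervals for counting error (lines). Grey bars hold the middle 95% of all shared regions of the pair, and dotted lines mark 2-fold. The Tnnc2 promoter (0.56) and the Tnni1 region (-0.78), both EDL over Sol, are the points whose lines do not cross 0.

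The focus ratio of the peaks was also compared between classes, which differ in place as well. This ratio is the share of a peak's tags that HOMER counts as properly placed upstream and downstream of its centre. It does not measure the width of a peak. The 11 fast peaks had a median of 0.601 (0.524 to 0.67), and 9 of them were below the median of their own list. For the 6 Tnnc2 peaks alone the median was 0.609, with 4 below. The 8 slow and cardiac peaks had a median of 0.649 (0.591 to 0.75), with 3 below. None of these lay at a promoter, and 4 were the same Tnni3 region, counted once in each list. The list medians ran from 0.624 to 0.644, and those of promoter peaks alone, which were 8 of the fast peaks, from 0.607 to 0.621. This comparison was chosen after the values were seen.

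Motif matches were spread unevenly over the 9 regions. CACC boxes were found in 6 regions, MCAT elements in 4, and MEF2, E-box and NFAT letters in 2 each. In the Tnnc2 upstream peak printed above, MEF2 and MCAT matches stand 1 base apart between a pair of CACC boxes, and the intron peak holds a MEF2 match between 2 E-boxes. MEF2 matches were present in 2 of 6 troponin peaks of EDL (33.3%, Wilson interval 9.68 to 70.0), beside 4.40% of all EDL peaks. Both were peaks of Tnnc2, and the interval counts peaks of 1 gene as separate, so it does not describe the family. Of the Quad, Sol and Dia peaks of the family 0 held one, at 3.44%, 4.35% and 3.09% of all peaks, with intervals up to 39.0%, 43.4% and 65.8%.

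The MCAT element, bound by TEAD factors, was present in 2 of 6 peaks in EDL, 3 of 6 in Quad, 2 of 5 in Sol and 1 of 2 in Dia, against 10.7% to 12.2% of all peaks. It was in the Tnni3 region of all 4 lists and in both Tnnt3 promoter peaks. The CACC box was present in 4 of 6, 3 of 6, 3 of 5 and 2 of 2 peaks, against 19.7% to 25.4%. The E-box was in 1 of 6 EDL peaks, 2 of 6 Quad peaks, 0 of 5 in Sol and 0 of 2 in Dia, against 20.8%, 19.1%, 20.3% and 19.5% of all. The NFAT core was in 1 of 6 peaks in EDL and in Quad and in 0 in Sol and Dia, against 16.4% to 18.0%, and was thus near the background. The Sol peak of Tnni1 held none of the 5 motifs, and the EDL peak held an NFAT core. In 32851 RefSeq promoters, from 250 bases before to 50 after a start, 31.5% held a CACC box and 1.86% a MEF2 match. The 6 members with an entry had 8 entries, and Tnni2 and Tnnt3 had none. Of these 6 members, 4 held a CACC box in any entry (Tnnc1, Tnnc2, Tnni1 and Tnnt1) and 0 a MEF2 match. These counts are of genes, whereas the shares above are of promoters.

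The other genes of the thin filament gave a wider frame. The 11 genes of the list were actins, tropomyosins, nebulin, tropomodulins and leiomodins, and they had 32 peaks in Quad, 30 in EDL, 27 in Sol and 23 in Dia. Of them 10 had a peak in Quad and EDL and 8 in Sol and Dia, with a promoter peak for 7, 6, 5 and 5. Among protein-coding genes 60.2% had a peak in Quad, 54.7% in EDL, 54.5% in Sol and 51.2% in Dia. A promoter peak was present for 41.3%, 37.7%, 37.6% and 37.0% of them. Peaks per gene ran from 2.09 in Dia to 2.91 in Quad, beside 0.250 in Dia and 0.750 in Quad for the 8 troponin genes. Over all genes with a peak in any list the values were 1.26 in Dia and 2.35 in Quad. Gene length was not taken into account. Dia thus held promoter peaks of 5 of these genes and of none of the troponin genes. Slow and cardiac troponin genes had a promoter peak in no list, and Tnni2 and Tnnt3 lie in the interval without Dia peaks. Only Tnnc2 was left for this comparison.

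In that list 2 genes differed by 2 or more peaks between EDL or Quad and Sol. Acta1, skeletal muscle actin, had 5 peaks in EDL, 3 in Sol and 2 each in Quad and Dia. Tmod1, which caps the pointed end of actin filaments, had 1, 4, 0 and 1. The next 3 genes were chosen after their values were seen. Neb, the giant filament protein nebulin, had 6 peaks in EDL and Sol, 7 in Quad and 2 in Dia. Tmod4, a tropomodulin of skeletal muscle, had 1 promoter peak in EDL, Quad and Sol at percentiles 82.1, 86.2 and 71.6 and none in Dia. Actc1, cardiac actin, had none in any list.

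The profiles of best score percentile over the 4 lists, with 0 where no peak was listed, were compared with those of 17156 other genes. For Tnni2 the nearest were 1700001L19Rik, 4930522P08Rik and Art5, at distances of 0.891, 2.66 and 2.73 percentile points. For Tnnc2 they were Prr33, Cutc and Dnaja1 (5.70, 5.80 and 5.97), and for Tnnt3 they were Gm5113, Morc2a and Nab2 (2.16, 2.33 and 2.82). The Prr33 profile is that of the region at the end of Tnnt3. Tnni2, Tnnt3 and this region all lie in the interval without Dia peaks, so each has 0 for Dia. Tnni1 had less similar genes, Ttc3, Uso1 and Ppip5k1 (11.7, 12.1 and 14.4), and Tnni3 had Trim30a, Heatr6 and Psmc2 (3.20, 4.31 and 4.37). The lists in which Tnnc2 and Tnni2 had a peak were also those of 1117 other genes, against 421 for Tnnt3, 155 for Tnni1 and 11170 for Tnni3.

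Markers of other cell types were also present in the lists. Endothelial markers had peaks for 4 of 4 genes in every list. Adipocyte markers had peaks for 3 of 3 genes in Dia, 1 in EDL and 0 in Quad and Sol, while fibroblast markers had peaks for 1 of 4 in Dia, 3 in EDL, 4 in Quad and 2 in Sol. Leukocyte markers had peaks for 1 of 4 genes in Dia, 2 in Sol and 3 in EDL and Quad, smooth muscle markers for 3 of 3 in EDL and Sol, 2 in Quad and 1 in Dia, and Schwann markers for 1 of 3 in each list. Dia thus had the most adipocyte markers and the fewest fibroblast, leukocyte and smooth muscle markers. The part of other cell types in the troponin counts was not tested.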

How the data were processed

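The study transposed nuclei of frozen, pulverised muscle and sequenced read pairs. The authors aligned reads to mm10 with Bowtie2 at default settings, kept 1 tag per start position in HOMER, called fixed-width peaks per list and annotated each to its nearest start site. The Tn5 shift and the removal of mitochondrial or repeat reads are not given in the sources used here. Default alignment can place a repeat read at 1 of several sites.

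The deposited values were the peak score (tags scaled by library size), the focus ratio (a fraction, as the authors' software gave it), positions and distances. Tags were inferred from score steps: below 10, 100.0% of scores were whole multiples of a step. Widths were 188 to 232 bp. Read totals were not used here.

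The members, gene lists and alternatives were chosen with earlier results of these data known. Peaks sharing 1 bp were joined. Intervals are exact for tags and Wilson for shares, at 95%, and cover counting error only. Named were the members, genes starting within 50 kb of one, thin filament genes differing by 2 or more peaks between EDL or Quad and Sol, and the 3 genes most alike in profile. Positions are 1-based, from GENCODE and RefSeq of GRCm38. Python 3.11.15, pandas 2.3.3, scipy 1.17.1 and pysam 0.24.0 were used, and scripts were tested on simulated data. Alternatives were shorter lists, a common lowest score, other assignment rules, other overlaps and percentiles within a class.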

Additional observations from a re-analysis of the deposited data

How the results depend on the processing

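Of 185 values recomputed under alternatives, 164 stayed within the limit set for the same value and 21 moved. The limit was wide, so the first count is no measure of stability. With peaks in or within 5 kb of a gene body, the fast minus slow contrast of EDL over Quad went from 0.00 to 0.67. Troponin regions in EDL went from 6 to 9, and both values still counted as the same. With peaks taken in or within 5 kb of a gene body, whatever their assigned gene, slow genes had 5 peaks in Quad, 4 in Sol, 3 in EDL and 2 in Dia and the cardiac count of Dia was 1. The added peaks lay at the promoters of Nisch and Ppp1r12c and upstream of the longest Tnni1 transcript. Troponin regions then numbered 11 in Quad and 9 in Sol. The fast minus slow contrast of Quad over Sol went from 0.33 to 0.00, which also fell within the limit. With each list limited to its 20000 top-scored peaks, slow and cardiac genes each held 0 peaks in Quad, 3 members had a peak there, and 0 regions were open in all 4 lists. With peaks within 10 kb of the start site, Dia had 1 cardiac peak, 1 member with a peak and 1 region. Without Tnni2 and Tnnt3, an alternative chosen after seeing the data, the fast count was 2 in Quad and 1 in Sol. Then 3 members had a peak in Quad and 3 in Sol, and Sol had 3 regions. The fast minus slow contrast of EDL over Dia was 2.67, on the scale of 1 fast gene in place of 3. The Dia median percentile was 53.6 among peaks of the same class and 36.7 among all peaks. The cause of these shifts was not tested beyond what each alternative leaves out or adds.

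No paired analysis was possible because each muscle had 1 library. Counts of 1 to 4 peaks per class change by a large share with each peak. The Quad peaks of Tnnt1 and Tnni3 were not among the 20000 top-scored peaks. Peaks below a list's threshold are not seen, so no absent peak shows closed chromatin.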

Other observations

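Regions close to a member that the authors assigned to another gene gave further values, and they were chosen after the data were seen. About 2.1 kb upstream of the longest GENCODE transcript of Tnni1, a region assigned to Phlda3 scored 12.6 in EDL, 10.9 in Quad and 6.31 in Sol and was missing from Dia. The percentiles were 83.7, 78.4 and 40.5. Its centred log2 ratio of EDL over Sol was 1.01 (0.58 to 1.46), at percentile 99.6 of 20584 shared regions, and that of Quad over Sol was 0.65 (0.17 to 1.14). The region 4700 to 4808 bp upstream of the RefSeq mRNA start used for the same gene had the opposite sign for EDL over Sol (-0.78). Thus 2 regions near 1 slow gene differed in direction between the same libraries.

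At the end of Tnnt3, the region assigned to Prr33 scored 13.9 in EDL, 15.5 in Quad and 9.65 in Sol. Its centred log2 ratio was 0.54 (0.16 to 0.92) for EDL over Sol and 0.55 (0.15 to 0.94) for Quad over Sol, close to the 0.56 of the Tnnc2 promoter for EDL over Sol. In intron 1 of Lsp1, between Tnni2 and Tnnt3, the scores were 16.4, 17.7 and 13.8, and both ratios to Sol had intervals that held 0 (0.27, -0.06 to 0.60, and 0.22, -0.12 to 0.57).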
